A study of Homo sapiens with 9 samples.

Results

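The cell cycle genes described here were 48 of the 38021 genes in the count table, selected by symbol: 20 genes of S phase, when DNA is copied, and 28 genes of G2 and mitosis (G2/M), when the copied chromosomes are separated. The libraries were made from RNA of 786-O cells, a widely used human line of clear cell renal carcinoma (ccRCC) without functional VHL. Cells carried a control short hairpin RNA (shControl), a hairpin against ARNT (shARNT) or a hairpin against BMAL1 (shBMAL1), with 3 libraries per group that the sample titles and the study's methods call biological replicates. Whether the 3 came from separate infections or from separate cultures of 1 selected population is not stated. ARNT and BMAL1 are basic helix-loop-helix PAS proteins: ARNT is the usual partner of hypoxia inducible factors, and BMAL1 is the partner of CLOCK in the circadian oscillator. All groups shared the same parental line, the PLKO.1 lentiviral vector and puromycin selection, so shControl cells were infected and selected as well. Each group was a selected population that expressed a single hairpin, and neither synchronisation nor sorting of the cells by cell cycle phase is described for these libraries.

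Cells copy their DNA in S phase, after E2F factors are released from RB family proteins and switch on genes for replication origins, the replication fork and nucleotide synthesis. Genes for mitosis are switched on later, in G2, by MuvB complexes with MYBL2 and FOXM1 that act through the cell cycle genes homology region (CHR) of promoters, often beside CCAAT boxes bound by NF-Y. In an unsynchronised culture an mRNA of this kind is a mean over all phases, so fewer cells in a phase and less mRNA per cell in that phase cannot be told apart in these libraries.

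Library totals were 33793045 to 35444735 reads. The targeted mRNAs were lower in their own knockdown: the log2 fold change of ARNT was −0.94 (SE 0.07, adjusted p 8.81e-35) under shARNT, and that of BMAL1 was −1.23 (SE 0.11, adjusted p 2.51e-25) under shBMAL1. Each was also lower in the other knockdown. BMAL1 gave −0.26 under shARNT (adjusted p 0.0294), which rose to 0.15 without shControl replicate 2 and 0.22 without shARNT replicate 3. ARNT gave −0.23 under shBMAL1 (adjusted p 0.0187), which rose to 0.162 without shControl replicate 2 and 0.109 without shBMAL1 replicate 2. Of 10 listed markers of renal epithelium and of ccRCC, PAX8 was detected at 6884 to 10477 normalised read counts and VIM at 78532 to 99638. CA9 (16.9 to 289.9) and NDUFA4L2 (5.85 to 28.2) were low. Values of the remaining markers of that list are not given here, and the identity of the line was taken from the sample titles. Of 10 markers of other cell types, CD3E was at 0 in all 9 libraries, PTPRC, VWF, COL3A1, DCN, ALB and PECAM1 did not exceed 8.95, and PDGFRB (10.7 to 35.7), COL1A1 (105 to 164) and CD68 (5325 to 7882) were detected. The mitochondrial share of reads was 5.68% ± 0.805 in shControl libraries, 7.44% ± 0.608 under shARNT and 8.38% ± 0.384 under shBMAL1 (SD, n = 3 each), and its part in the results below was not tested. The combined read share of the 48 genes was 0.907% ± 0.0123 in shControl libraries, 0.865% ± 0.00425 under shARNT and 0.817% ± 0.00559 under shBMAL1 (SD, n = 3 each), and these 3 ranges did not overlap.

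The promoters of both classes carried different short elements. In RefSeq windows from 250 bases before to 50 bases after the annotated start (GRCh38.p14), 18 of the 20 S phase genes and 23 of the 28 G2/M genes had an entry, and MCM4, MCM5, AURKA, TPX2, UBE2C, BIRC5 and TTK had none. A CHR, searched as TTTGAA or TTTAAA on both strands, was present in 19 of the 23 G2/M windows (82.6%) and in 2 of the 18 S phase windows (11.1%), beside 24.3% of all 27305 promoters and 15.2% of the 7560 promoters of expressed genes, those with a mean of at least 300 counts. An E2F element, searched as TTTCGCGC, TTTGGCGC or TTTCCCGC on both strands, was present in 13 of the 18 S phase windows (72.2%), in 2 of the 23 G2/M windows (8.70%), in 2.79% of all promoters and in 5.01% of those of expressed genes. Other genes of both phases, from the textbook lists described below, were searched as well. Of these, 12 of 40 S phase windows (30%) and 3 of 59 G2/M windows (5.085%) held an E2F element. Both classes held CCAAT in a similar share, 72.2% of S phase and 73.9% of G2/M windows, against 35.7% of all promoters and 37.0% of those of expressed genes. The canonical E-box CACGTG, the element that BMAL1 with CLOCK is known to bind, was found in 3 S phase windows (16.7%) and 5 G2/M windows (21.7%), in 7.43% of all promoters and in 10.9% of those of expressed genes. Among the other genes, 5 of 40 S phase windows (12.5%) and 3 of 59 G2/M windows (5.085%) held an E-box. The other G2/M genes thus lay below both backgrounds and did not share the higher E-box share. TTTGGCGC and TTTCGCGC can overlap on opposite strands, and such an overlap still counted a window only once. A match describes the letters alone and was not read as a bound site.

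Stretches around one CHR are given for 6 G2/M genes that all fell under shBMAL1, among them KIF11, which was called higher under shARNT. Each reads 5′ to 3′ on the strand of the gene, with the CHR in capitals (TTCAAA is TTTGAA read on the other strand).
CCNB1: gcagtgcggggTTTAAAtctgaggctag
CCNB2: gcgacgcggtaTTTGAAtcctggaacaa
PLK1: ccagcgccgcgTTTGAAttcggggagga
CDC20: gacggttggatTTTGAAggagccaatag
PRC1: ccgtggcgcggTTTGAAattttgcgggg
KIF11: tctgtctctttTTCAAAttgaggcgccg
These stretches lie at chr5:69167109-69167136 (plus strand), chr15:59105106-59105133 (plus strand), chr16:23678849-23678876 (plus strand), chr1:43358905-43358932 (plus strand), chr15:90994539-90994566 (minus strand) and chr10:92593091-92593118 (plus strand). Their CHR began at positions −30, −29, −29, −65, −20 and −28 from the annotated start, in the same order, so all 6 lay upstream of that start. AURKB and BUB1, the G2/M genes with the largest decrease under shBMAL1, had CCAAT but no CHR letters within the window.

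Stretches around an E2F element are given for 5 S phase genes, 4 of which rose in at least 1 knockdown, together with the CHR of RRM2, an S phase gene that fell under shBMAL1.
GINS2: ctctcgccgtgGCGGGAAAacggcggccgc
MCM6: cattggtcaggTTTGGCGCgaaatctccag
MCM3: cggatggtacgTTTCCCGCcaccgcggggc
PCNA: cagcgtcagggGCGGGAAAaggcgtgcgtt
E2F1: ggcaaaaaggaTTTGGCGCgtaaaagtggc
RRM2: ggcgcgggagaTTTAAAggctgctggag
The E2F element is in capitals in the first 5 (GCGGGAAA is TTTCCCGC on the other strand) and the CHR in that of RRM2. They lie at chr16:85688967-85688996, chr2:135876515-135876544, chr6:52284898-52284927, chr20:5126663-5126692 and chr20:33686387-33686416 on the minus strand, and at chr2:10122698-10122725 on the plus strand. The E2F elements began at positions −31, −90, −174, −59 and −20, in that order, and the CHR of RRM2 at −30. RRM1 and RRM2 were the only S phase genes whose window held CHR letters.

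**Figure D1:**
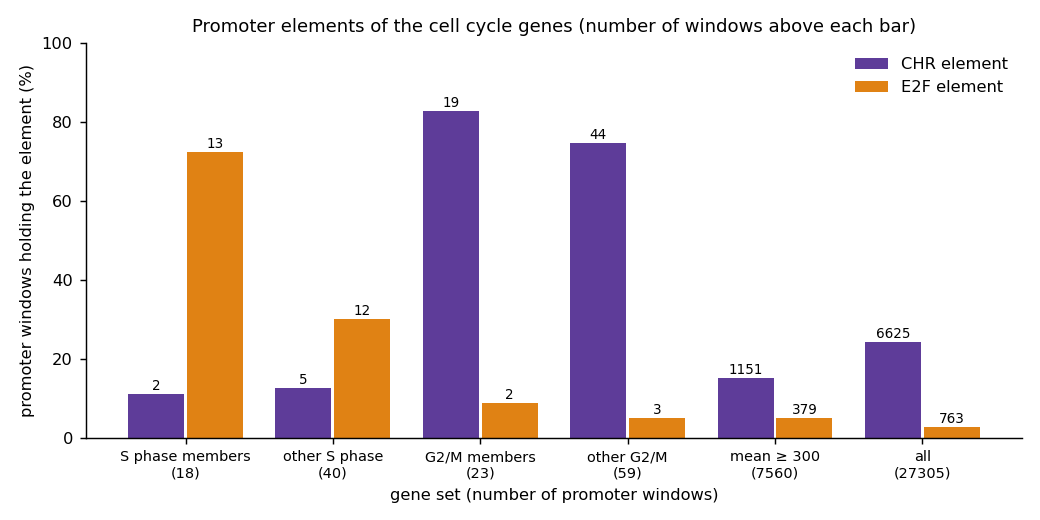
Share of RefSeq promoter windows (vertical axis, percent) that hold a CHR or an E2F element in the S phase and G2/M genes, in other genes of both phases, in expressed genes (mean of 300 or more normalised read counts) and in all genes; the number of windows stands in parentheses under each set and the number that hold the element above each bar. CHR bars are tall in both G2/M sets (82.6% and 74.6%), and the E2F bar is tallest in the S phase genes (72.2%).

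All 48 genes were expressed and tested in each comparison, and called where the DESeq2 adjusted p over all genes tested was under 0.1. Both knockdowns were compared with the same 3 shControl libraries, so their values are given side by side. Under shARNT, 16 of the 48 genes were called lower and 4 higher, against 19.0% lower, 16.5% higher and 35.4% in either direction among the 15164 genes tested. The 4 higher became 2 without shControl replicate 1 and without shARNT replicate 3. Under shBMAL1, 24 were called lower and 5 higher, against 19.4% lower, 17.4% higher and 36.8% in either direction of 19036 genes. The changes were small: 0 genes under shARNT and 2 under shBMAL1, AURKB and BUB1, passed both the test and a change of 1.5-fold. Where leaving out 1 library ended or made one of the calls given below, that library is named with the adjusted p without it in parentheses. Where a gene has a pair of log2 fold changes with no group named, shARNT comes first.

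The phases separated under shBMAL1. Of the 28 G2/M genes, 20 (71.4%) fell and 0 rose, with 26 of 28 log2 fold changes below 0 and a median of −0.27. Without shBMAL1 replicate 1, 1 of them rose. Of the 20 S phase genes, 4 fell, 5 rose and 11 were not called, with a median of −0.00 that lay between −0.0414 (without shBMAL1 replicate 1) and 0.0247 (without shBMAL1 replicate 2). The 4 that fell became 2 without shControl replicate 2. Under shARNT, 12 G2/M genes fell and 3 rose, with a median of −0.10, while 4 S phase genes fell and 1 rose, with a median of −0.01 that lay between −0.0345 (without shControl replicate 3) and 0.0141 (without shControl replicate 2). The 3 G2/M genes that rose became 1 without shControl replicate 1, shControl replicate 3 or shARNT replicate 3. The 4 S phase genes that fell became 2 without shControl replicate 2 or shARNT replicate 3, and the 1 that rose became 2 without shControl replicate 3. Among all genes whose mean reached 300 normalised read counts, a floor that does not match the level of the 48 genes, most of which lay far above it, 24.04% were called lower and 20.4% higher under shARNT (median −0.0044), and 31.3% lower and 19.7% higher under shBMAL1 (median −0.0488).

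**Figure D2:**
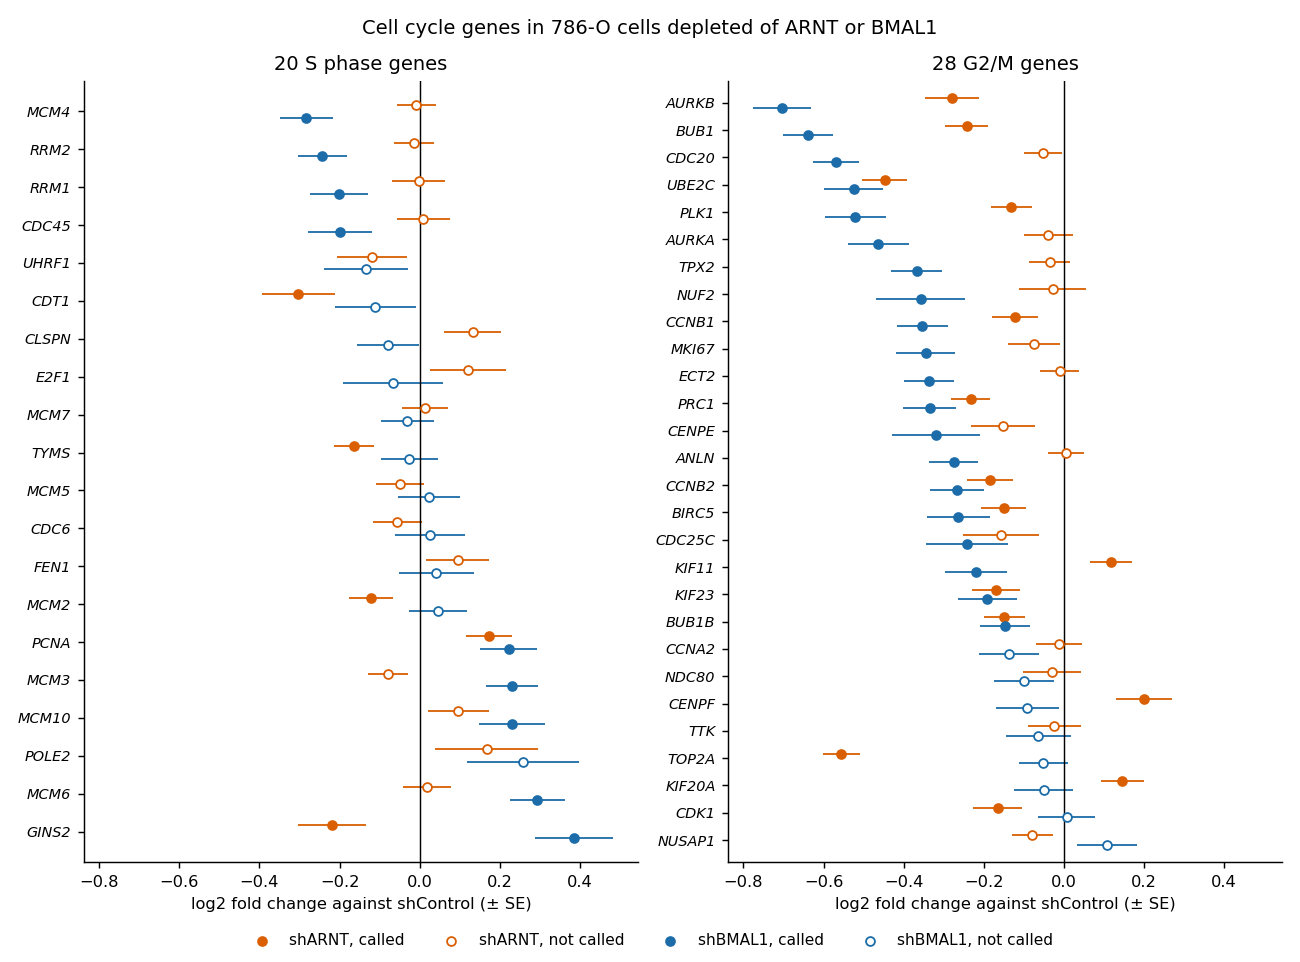
Log2 fold change against shControl (horizontal axis, ± SE) of the 20 S phase genes (left) and 28 G2/M genes (right), ordered by their value under shBMAL1; filled points were called and open points were not. The 20 called shBMAL1 points of the G2/M panel all lie left of 0, while the 9 of the S phase panel lie on both sides.

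Among the kinases and cyclins of mitotic entry, 4 of 6 fell in each knockdown (66.7%). Of genes whose mean reached 300 counts, 24.04% were lower under shARNT and 31.3% under shBMAL1. CCNB1, the cyclin that activates CDK1 at the start of mitosis, had normalised read counts of 6322, 5839 and 5914 in shControl, 5818, 5352 and 5400 in shARNT and 4733, 4743 and 4688 in shBMAL1. Its shControl and shBMAL1 libraries were far apart, and even those of shARNT, at most 5818, lay below the lowest control of 5839. The log2 fold change of CCNB1 was −0.35 (SE 0.06, adjusted p 2.62e-07) under shBMAL1 and −0.12 (SE 0.06, adjusted p 0.0915) under shARNT. The shARNT call was lost without shControl replicate 1 (0.368), shControl replicate 3 (0.123), shARNT replicate 2 (0.315) or shARNT replicate 3 (0.275).

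CDK1, the kinase that drives entry into mitosis, had counts of 4061, 4272 and 4216 in shControl, 3478, 3935 and 3753 in shARNT and 3872, 4389 and 4362 in shBMAL1. It fell under shARNT, with all 3 libraries below the controls, and overlapped the controls under shBMAL1. The log2 fold change of CDK1 was −0.17 (SE 0.06, adjusted p 0.0254) under shARNT and 0.01 (SE 0.07, adjusted p 0.961) under shBMAL1. The shARNT call of CDK1 was lost without shControl replicate 2 (0.116) or shARNT replicate 1 (0.173).

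PLK1, a kinase of mitotic entry and spindle assembly, had counts of 14314, 15758 and 14155 in shControl, 13375, 13491 and 13431 in shARNT and 11332, 9981 and 9564 in shBMAL1, with no overlap between any groups. The log2 fold change of PLK1 was −0.52 (SE 0.08, adjusted p 1.14e-10) under shBMAL1 and −0.13 (SE 0.05, adjusted p 0.0430) under shARNT. The shARNT call was lost without shControl replicate 2 (0.279), shARNT replicate 1 (0.110), shARNT replicate 2 (0.110) or shARNT replicate 3 (0.117). CCNB2, a second B-type cyclin, fell in both knockdowns, by 0.18 (adjusted p 0.00725) and 0.27 (adjusted p 4.14e-04). CDC25C, the phosphatase that activates CDK1, was called lower under shBMAL1 alone, at −0.24 (SE 0.10, adjusted p 0.0525), and this call was lost without shControl replicate 1 (0.251), shControl replicate 2 (0.146) or shBMAL1 replicate 3 (0.212). CCNA2, the cyclin of S phase and G2, was not called, at −0.01 (SE 0.06, adjusted p 0.910) under shARNT and −0.14 (SE 0.07, adjusted p 0.156) under shBMAL1.

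Of 4 spindle assembly genes, 3 fell under shBMAL1 (75%), and 1 rose under shARNT (25%). Genes whose mean reached 300 counts were 31.3% lower under shBMAL1 and 20.4% higher under shARNT. AURKA, the centrosomal Aurora kinase, had counts of 5024, 4796 and 4544 in shControl, 4695, 4387 and 4870.2 in shARNT and 3553, 3722 and 3161 in shBMAL1. All 3 shBMAL1 libraries lay below the 6 others. The log2 fold change was −0.46 (SE 0.08, adjusted p 2.57e-08) under shBMAL1, against −0.04 (SE 0.06, adjusted p 0.698) under shARNT. TPX2, the protein that activates AURKA on the spindle, gave −0.37 (SE 0.06, adjusted p 1.10e-07) under shBMAL1 and −0.04 (SE 0.05, adjusted p 0.668) under shARNT.

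KIF11, the motor that pushes spindle poles apart, was the single G2/M gene called in opposite directions. Its counts were 3876, 3852 and 3876 in shControl, 4082, 4235 and 4237 in shARNT and 2963, 3496 and 3517 in shBMAL1. The 3 groups did not overlap, with shARNT highest and shBMAL1 lowest. KIF11 was called higher under shARNT at 0.12 (SE 0.05, adjusted p 0.0789) and lower under shBMAL1 at −0.22 (SE 0.08, adjusted p 0.0181). The shARNT call was near the threshold and was lost without shControl replicate 1 (0.190), shControl replicate 2 (0.189), shControl replicate 3 (0.166), shARNT replicate 2 (0.230) or shARNT replicate 3 (0.221). NUSAP1, which bundles spindle microtubules, had counts of 8101, 7803 and 8096 in shControl, 7266, 7810 and 7596 in shARNT and 7765, 9405 and 8709 in shBMAL1, with overlap between all pairs of groups. It was called in neither knockdown, at −0.08 (SE 0.05, adjusted p 0.254) and 0.11 (SE 0.07, adjusted p 0.302), but was called higher under shBMAL1 without shBMAL1 replicate 1 (0.0174).

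AURKB and BIRC5, the kinase and the survivin subunit of the chromosomal passenger complex that corrects chromosome attachment, fell in both knockdowns. AURKB had counts of 3221, 3169.9 and 3436 in shControl, 2460.3, 2817 and 2803 in shARNT and 1968, 1978 and 2095 in shBMAL1. The groups were ordered shControl, shARNT, shBMAL1 with no overlap. AURKB had the largest decrease of the 48 genes under shBMAL1, at −0.70 (SE 0.07, adjusted p 3.51e-21), and was −0.28 (SE 0.07, adjusted p 3.20e-04) under shARNT. BIRC5 fell by 0.26 under shBMAL1 (adjusted p 0.00373) and by 0.15 under shARNT (adjusted p 0.0271), and the latter call was lost without shControl replicate 3 (0.147) or shARNT replicate 1 (0.175).

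Of the 7 kinetochore and spindle checkpoint genes, 4 fell under shBMAL1, and 2 fell and 1 rose under shARNT. These were 57.1% lower under shBMAL1, and 28.6% lower and 14.3% higher under shARNT. Genes whose mean reached 300 counts gave 31.3%, 24.04% and 20.4%, so the shARNT shares were near that background. BUB1, the checkpoint kinase that marks kinetochores, had counts of 9498, 8954 and 9749 in shControl, 7715, 7782 and 8283 in shARNT and 6015, 6110.3 and 6012 in shBMAL1. The 3 shBMAL1 libraries lay close together below all others, and the 3 groups did not overlap. BUB1 gave −0.64 (SE 0.06, adjusted p 1.55e-23) under shBMAL1 and −0.24 (SE 0.05, adjusted p 6.11e-05) under shARNT. BUB1B, which inhibits the anaphase-promoting complex until chromosomes are attached, fell by a similar amount in both, at −0.15 (SE 0.05, adjusted p 0.0174) and −0.15 (SE 0.06, adjusted p 0.0536). Its shARNT call was lost without shControl replicate 1 (0.107), and its shBMAL1 call without shControl replicate 1 (0.195), shControl replicate 2 (0.143) or shBMAL1 replicate 2 (0.127).

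CENPF, a large protein of the outer kinetochore, went the other way under shARNT. Its counts were 6339, 7292 and 7368 in shControl, 8734, 7344 and 7986 in shARNT and 6023, 6782 and 6928 in shBMAL1, and the lowest shARNT library, 7344, lay below the highest control, 7368, so these groups overlapped. CENPF was called higher under shARNT at 0.20 (SE 0.07, adjusted p 0.0203) and not called under shBMAL1 at −0.09 (SE 0.08, adjusted p 0.428), and the shARNT call was lost without shControl replicate 1 (0.201) or shARNT replicate 1 (0.192). CENPE, the kinetochore motor, fell under shBMAL1 at −0.32 (SE 0.11, adjusted p 0.0141), a call that was lost without shBMAL1 replicate 1 (0.104), and was −0.15 (SE 0.08, adjusted p 0.139) under shARNT, where it was called lower without shControl replicate 2 (0.0388). NUF2, a subunit of the NDC80 complex that holds microtubules, fell under shBMAL1 at −0.36 (SE 0.11, adjusted p 0.00583), with counts of 1171, 1682 and 1314 in shBMAL1 against 1791, 1848 and 1690.2 in shControl. Its partner subunit NDC80 and the checkpoint kinase TTK were not called, at −0.10 (SE 0.07, adjusted p 0.340) for NDC80 and −0.06 (SE 0.08, adjusted p 0.618) for TTK under shBMAL1.

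The genes of the anaphase-promoting complex differed in how they responded. CDC20, the activator that starts anaphase, had counts of 15486, 15600 and 15323 in shControl, 14313, 14928 and 15443 in shARNT and 10819, 10158 and 10340 in shBMAL1. The shARNT libraries overlapped the controls, and the shBMAL1 libraries, at most 10819, lay below all others. Its log2 fold change was −0.57 (SE 0.06, adjusted p 2.76e-21) under shBMAL1 and −0.05 (SE 0.05, adjusted p 0.463) under shARNT. UBE2C, the ubiquitin-conjugating enzyme of the complex, had counts of 9494, 8937 and 10059 in shControl, 6678, 7044 and 7119 in shARNT and 6039, 7064 and 6720.4 in shBMAL1. Both knockdowns lay below the controls and overlapped each other, at −0.45 (SE 0.06, adjusted p 8.83e-14) and −0.53 (SE 0.07, adjusted p 3.61e-11).

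Of 5 cytokinesis genes, 4 fell under shBMAL1 (80%), beside 31.3% of genes whose mean reached 300 counts. ECT2, which activates RhoA at the cleavage furrow, and ANLN, the scaffold of the contractile ring, fell under shBMAL1 at −0.34 (SE 0.06, adjusted p 4.99e-07) and −0.28 (SE 0.06, adjusted p 6.67e-05) and had shARNT values of −0.01 and 0.00 (adjusted p 0.906 and 0.956). PRC1, which bundles microtubules of the central spindle, fell in both, at −0.23 (SE 0.05, adjusted p 1.69e-05) and −0.34 (SE 0.07, adjusted p 3.33e-06). KIF23, a motor of the central spindle, also fell in both, at −0.17 (SE 0.06, adjusted p 0.0172) and −0.19 (SE 0.07, adjusted p 0.0310), but lost its shARNT call without shControl replicate 2 (0.117) or shARNT replicate 2 (0.109) and its shBMAL1 call without shControl replicate 2 (0.147), shControl replicate 3 (0.112) or shBMAL1 replicate 3 (0.152). KIF20A, the motor that brings the passenger complex to the midzone, had counts of 7314, 7559 and 6836 in shControl, 7809.8, 8043 and 8110.4 in shARNT and 7621, 6627 and 6735 in shBMAL1. All shARNT libraries were above the controls, and the shBMAL1 libraries overlapped them. KIF20A was called higher under shARNT at 0.15 (SE 0.05, adjusted p 0.0254), a call that was lost without shControl replicate 3 (0.173) or shARNT replicate 3 (0.108), and was −0.05 (SE 0.07, adjusted p 0.670) under shBMAL1.

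The 2 genes of chromosome structure split between the knockdowns. TOP2A, the topoisomerase that untangles sister chromatids, had counts of 22304, 21993 and 21232 in shControl, 15200, 14549 and 14731 in shARNT and 20018, 21369 and 21926 in shBMAL1. All 3 shARNT libraries were at most 15200, while the shBMAL1 libraries overlapped the controls. The decrease under shARNT, −0.56 (SE 0.05, adjusted p 6.10e-32), was the largest of the 48 genes there, and the shBMAL1 value was −0.05 (SE 0.06, adjusted p 0.588). MKI67, the Ki-67 protein that coats mitotic chromosomes and serves as a marker of proliferating cells, had counts of 13575, 15770 and 14361 in shControl, 14887, 12787 and 13730 in shARNT and 11976, 11822 and 10656 in shBMAL1. The shBMAL1 libraries lay below all others, and those of shARNT overlapped the controls. MKI67 gave −0.35 (SE 0.07, adjusted p 2.23e-05) under shBMAL1 and −0.07 (SE 0.07, adjusted p 0.435) under shARNT.

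**Figure D3:**
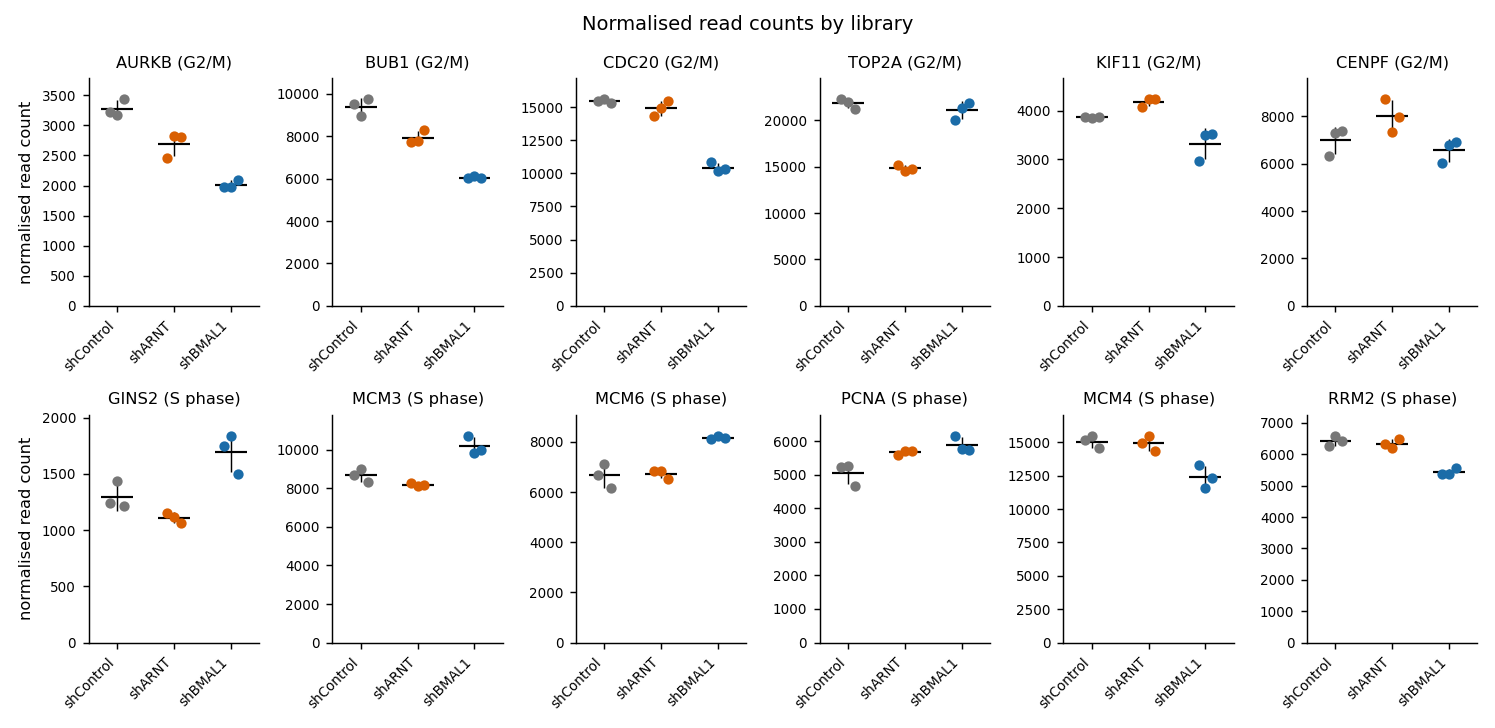
Normalised read counts (vertical axis, from 0) of 6 G2/M genes (top) and 6 S phase genes (bottom) in the 3 libraries of each group; points are libraries, horizontal bars means and vertical lines ± SD. AURKB, BUB1 and CDC20 are lowest in shBMAL1 and TOP2A in shARNT, whereas GINS2, MCM3 and MCM6 are highest in shBMAL1.

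Under shBMAL1 20% of the S phase genes fell and 25% rose, beside 31.3% and 19.7% of genes whose mean reached 300 counts. Calls went both ways within a single complex. MCM2 to MCM7 form the hexameric helicase that unwinds DNA, and under shBMAL1 MCM3 and MCM6 rose, MCM4 fell and MCM2, MCM5 and MCM7 were not called. MCM6 had counts of 6697, 7126 and 6151 in shControl, 6854, 6823 and 6511 in shARNT and 8112, 8239.8 and 8161 in shBMAL1. Its shBMAL1 libraries lay close together above the 6 others, and its shARNT libraries overlapped the controls. MCM6 was 0.29 (SE 0.07, adjusted p 1.31e-04) under shBMAL1 and 0.02 (SE 0.06, adjusted p 0.867) under shARNT. MCM3 had counts of 8682, 9026 and 8326 in shControl, 8272, 8133 and 8202 in shARNT and 10731, 9844 and 9999.9 in shBMAL1, and its 3 groups did not overlap. It rose under shBMAL1 at 0.23 (SE 0.06, adjusted p 0.00194) and was −0.08 (SE 0.05, adjusted p 0.251) under shARNT.

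MCM4 had counts of 15163, 15462 and 14567 in shControl, 14963, 15498 and 14382 in shARNT and 13294, 11596 and 12317 in shBMAL1. The shBMAL1 libraries lay below all others, and shARNT overlapped the controls. MCM4 had the lowest value of the S phase genes under shBMAL1, −0.28 (SE 0.07, adjusted p 1.69e-04), against −0.01 (SE 0.05, adjusted p 0.934) under shARNT. MCM2 had counts of 6454, 6978 and 6376 in shControl, 6206, 5976 and 5980.4 in shARNT and 7305, 6314 and 6868 in shBMAL1. Some of its deposited counts were fractional, so they are not whole reads and its level is less certain. It was called lower under shARNT at −0.12 (SE 0.05, adjusted p 0.0749) and not under shBMAL1 at 0.05 (SE 0.07, adjusted p 0.696), and the shARNT call was lost without shControl replicate 1 (0.108), shControl replicate 2 (0.354), shARNT replicate 2 (0.222) or shARNT replicate 3 (0.214). MCM5 and MCM7 were called in no comparison, with shBMAL1 values of 0.02 and −0.03 (SE 0.08 and 0.07).

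Genes that load and activate the helicase held the largest contrast between the knockdowns. GINS2, a subunit of the GINS complex that joins the helicase to the polymerase, had counts of 1241, 1434 and 1211 in shControl, 1153, 1118 and 1062 in shARNT and 1744, 1838 and 1499 in shBMAL1. All shARNT libraries were below the controls and all shBMAL1 libraries above them. GINS2 was called lower under shARNT at −0.22 (SE 0.08, adjusted p 0.0357) and higher under shBMAL1 at 0.38 (SE 0.10, adjusted p 5.34e-04), and the shARNT call was lost without shControl replicate 2 (0.286) or shARNT replicate 3 (0.174). CDT1, which loads the helicase at origins, had counts of 1394, 1167 and 1507 in shControl, 1084, 1108 and 1099 in shARNT and 1235, 1188 and 1347 in shBMAL1. The shARNT libraries, at most 1108, lay below the lowest control of 1167, and those of shBMAL1 overlapped the controls. CDT1 fell under shARNT at −0.30 (SE 0.09, adjusted p 0.00499) and was −0.11 (SE 0.10, adjusted p 0.458) under shBMAL1.

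CDC45, a subunit of the active helicase, fell under shBMAL1 at −0.20 (SE 0.08, adjusted p 0.0402), and this call was lost without shControl replicate 2 (0.215), shControl replicate 3 (0.105) or shBMAL1 replicate 2 (0.199). MCM10, a factor of helicase activation, rose under shBMAL1 at 0.23 (SE 0.08, adjusted p 0.0205), and this call was lost without shControl replicate 3 (0.141). CDC6, which loads the helicase together with CDT1, was not called, at −0.06 (SE 0.06, adjusted p 0.558) and 0.03 (SE 0.09, adjusted p 0.871).

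At the replication fork, PCNA, the sliding clamp that holds polymerases on DNA, was the single gene of the 48 called higher in both knockdowns. Its counts were 5213, 5244 and 4661 in shControl, 5579, 5712 and 5718 in shARNT and 6156, 5759.6 and 5739 in shBMAL1. Every library of both knockdowns lay above the highest control, and the highest shARNT library, 5718, lay just below the lowest of shBMAL1, 5739, so the 3 groups did not overlap. The difference between shBMAL1 and shARNT was not called, at 0.05 (SE 0.06, adjusted p 0.593). PCNA rose at 0.17 (SE 0.06, adjusted p 0.0135) under shARNT and at 0.22 (SE 0.07, adjusted p 0.00735) under shBMAL1, and the shARNT call was lost without shControl replicate 3 (0.124). POLE2, a subunit of polymerase epsilon, gave 0.17 (SE 0.13, adjusted p 0.362) under shARNT and 0.26 (SE 0.14, adjusted p 0.159) under shBMAL1, and FEN1, the flap endonuclease of Okazaki fragments, gave 0.10 (SE 0.08, adjusted p 0.403) under shARNT and 0.04 (SE 0.09, adjusted p 0.800) under shBMAL1, none of them called. CLSPN, the claspin adaptor of the replication checkpoint, was also not called, at 0.13 (SE 0.07, adjusted p 0.151) and −0.08 (SE 0.08, adjusted p 0.497), although shARNT was called higher without shControl replicate 3 (0.0796).

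For nucleotide supply, both subunits of ribonucleotide reductase, RRM1 and RRM2, fell under shBMAL1 alone. RRM2 had counts of 6254, 6589 and 6417 in shControl, 6321, 6211 and 6487 in shARNT and 5367, 5386 and 5548 in shBMAL1, with all shBMAL1 libraries below the others. Its log2 fold changes were −0.24 (SE 0.06, adjusted p 4.27e-04) under shBMAL1 and −0.02 (SE 0.05, adjusted p 0.871) under shARNT. RRM1 was −0.20 (SE 0.07, adjusted p 0.0207) under shBMAL1, a call lost without shControl replicate 1 (0.156) or shControl replicate 2 (0.102), and −0.00 (SE 0.07, adjusted p 0.984) under shARNT. TYMS, thymidylate synthase, fell under shARNT at −0.16 (SE 0.05, adjusted p 0.00622) and was −0.03 (SE 0.07, adjusted p 0.839) under shBMAL1, and some of its deposited counts were fractional, which makes its level less certain.

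Neither gene of transcription and chromatin was called. E2F1, the activator of S phase genes, had counts of 990.1, 955 and 1231 in shControl, 1192, 1113 and 1141 in shARNT and 922, 899 and 1215 in shBMAL1, with overlap between all groups. E2F1 gave 0.12 (SE 0.10, adjusted p 0.379) under shARNT and −0.07 (SE 0.12, adjusted p 0.755) under shBMAL1, and it was called higher under shARNT without shControl replicate 3 (0.0356). UHRF1, which carries DNA methylation through replication, was −0.12 (SE 0.09, adjusted p 0.333) and −0.13 (SE 0.10, adjusted p 0.366).

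Several of the smaller calls ended when the processing was changed. Under shARNT the GC correction ended the calls of BIRC5 (−0.10, adjusted p 0.210), PLK1 (−0.08, adjusted p 0.256), MCM2 (−0.08, adjusted p 0.323) and KIF11 (0.08, adjusted p 0.233). A fit of all 9 libraries together also ended these 4, at adjusted p of 0.116, 0.133, 0.149 and 0.235, and that of CCNB1 (0.101). KIF11 was not called with edgeR (0.109), with TMM size factors (0.124) or with no filter (0.124), so its opposite direction in the knockdowns rests on a call that most alternatives ended. With no filter CCNB1 (0.143) and MCM2 (0.118) were not called either, and with a minimum of 10 counts in 3 libraries CCNB1 was not (0.107). In the other direction, CENPE was called lower under shARNT with edgeR (0.0999) and the GC correction (0.0428), and NUSAP1 lower with the GC correction (0.0888). Under shBMAL1 none of these alternatives ended a call, while POLE2 was called higher with edgeR (0.0799) and CCNA2 lower with the GC correction (0.0654). In the direct comparison none of them ended a call, and TYMS was called higher with edgeR (0.0979), the fit of all 9 libraries (0.0740) and the GC correction (0.0922).

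The direct comparison of shBMAL1 with shARNT does not use the control libraries. In it 19 of the 48 genes were lower and 8 higher in shBMAL1, against 18.0% lower, 17.3% higher and 35.3% in either direction of 18181 genes tested, and 28.3% lower and 20.1% higher among genes whose mean reached 300 counts. As shares, 39.6% of the 48 genes were lower and 16.7% higher, so the higher calls were no more frequent than in either background. The 8 higher became 5 without shARNT replicate 1, 4 without shARNT replicate 3 and 5 without shBMAL1 replicate 3. Of the G2/M genes 14 were lower and 3 higher, with a median of −0.18, and of the S phase genes 5 were lower and 5 higher, with a median of 0.06 that became 0.0043 without shBMAL1 replicate 1. The 3 higher G2/M genes became 1 without shARNT replicate 1, shARNT replicate 3, shBMAL1 replicate 2 or shBMAL1 replicate 3, and the 5 higher S phase genes became 3 without shARNT replicate 2 or shARNT replicate 3. GINS2 differed most, at 0.61 (SE 0.09, adjusted p 8.16e-10), and was the single gene past 1.5-fold. TOP2A followed among the higher genes at 0.51 (SE 0.06, adjusted p 1.98e-15), then MCM3 at 0.31 (SE 0.06, adjusted p 3.01e-06).

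The lowest G2/M genes of the direct comparison were CDC20, at −0.51 (SE 0.06, adjusted p 7.23e-16), and AURKB, at −0.42 (SE 0.08, adjusted p 1.07e-06). Those of S phase were MCM4, at −0.27 (SE 0.07, adjusted p 3.81e-04), and RRM2, at −0.22 (SE 0.06, adjusted p 0.00121). Of the 10 G2/M genes that fell in both knockdowns, CCNB1, PLK1, AURKB and BUB1 were lower in shBMAL1 than in shARNT, and CCNB2, BUB1B, KIF23, UBE2C, BIRC5 and PRC1 were not called. Of the 9 that fell under shBMAL1 alone, 7 were also lower than in shARNT, and CENPE and CDC25C were not called, so for those 2 a difference between the knockdowns was not shown. The G2/M genes called higher under shARNT were lower in shBMAL1 than in shARNT, KIF11 at −0.33 (SE 0.08, adjusted p 1.63e-04), CENPF at −0.29 (SE 0.08, adjusted p 0.00171) and KIF20A at −0.19 (SE 0.07, adjusted p 0.0204).

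Some direct calls were lost when 1 library was left out. That of NUF2 (−0.32) was lost without shARNT replicate 2 (0.142), shARNT replicate 3 (0.117), shBMAL1 replicate 1 (0.156) or shBMAL1 replicate 3 (0.102). That of CDK1 (0.18, higher in shBMAL1) was lost without shARNT replicate 1 (0.315), shARNT replicate 3 (0.152), shBMAL1 replicate 2 (0.231) or shBMAL1 replicate 3 (0.211). That of NUSAP1 (0.19) was lost without shARNT replicate 1 (0.193), shARNT replicate 3 (0.115), shBMAL1 replicate 2 (0.258) or shBMAL1 replicate 3 (0.107). The remaining such calls were in S phase genes, apart from KIF20A. MCM2 (0.17) was lost without shARNT replicate 2 (0.154), shARNT replicate 3 (0.151), shBMAL1 replicate 1 (0.151) or shBMAL1 replicate 3 (0.104), and CDT1 (0.20) without shARNT replicate 1 (0.197), shARNT replicate 2 (0.157), shARNT replicate 3 (0.172) or shBMAL1 replicate 3 (0.298). RRM1 (−0.19) was lost without shARNT replicate 2 (0.105), CLSPN (−0.21) without shARNT replicate 3 (0.122), CDC45 (−0.20) without shBMAL1 replicate 2 (0.130) and KIF20A without shBMAL1 replicate 2 (0.125). In the other direction, PRC1 was called lower without shBMAL1 replicate 1 (0.0463), CENPE without shBMAL1 replicate 2 (0.0597) and E2F1 without shBMAL1 replicate 3 (0.00456), and TYMS higher without shBMAL1 replicate 3 (0.0370). The 7 S phase genes MCM5, MCM7, CDC6, UHRF1, E2F1, POLE2 and FEN1 and the 3 G2/M genes CCNA2, NDC80 and TTK were called in none of the 3 comparisons.

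The same contrast between phases was examined in each library, as the median log2 ratio of the genes to their mean in shControl. The S phase median minus the G2/M median was 0.0035, 0.0450 and −0.0426 in the shControl libraries. It was 0.1281, 0.0756 and 0.0839 in shARNT, and 0.3634, 0.0795 and 0.3806 in shBMAL1. Both knockdowns lay above all controls, but shBMAL1 replicate 2 stood apart from the other 2 libraries of its group and fell within the range of shARNT. In that library the S phase median was −0.0894, where replicates 1 and 3 had 0.1006 and 0.0340, and the G2/M median was −0.1689, where they had −0.2629 and −0.3466. The G2/M median of replicate 2 was still below that of every shControl and shARNT library. Without shBMAL1 replicate 2 the difference between the medians of the fitted log2 fold changes under shBMAL1 was 0.327, against 0.270 with it, and the G2/M genes gave 19 lower and 0 higher.

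**Figure D4:**
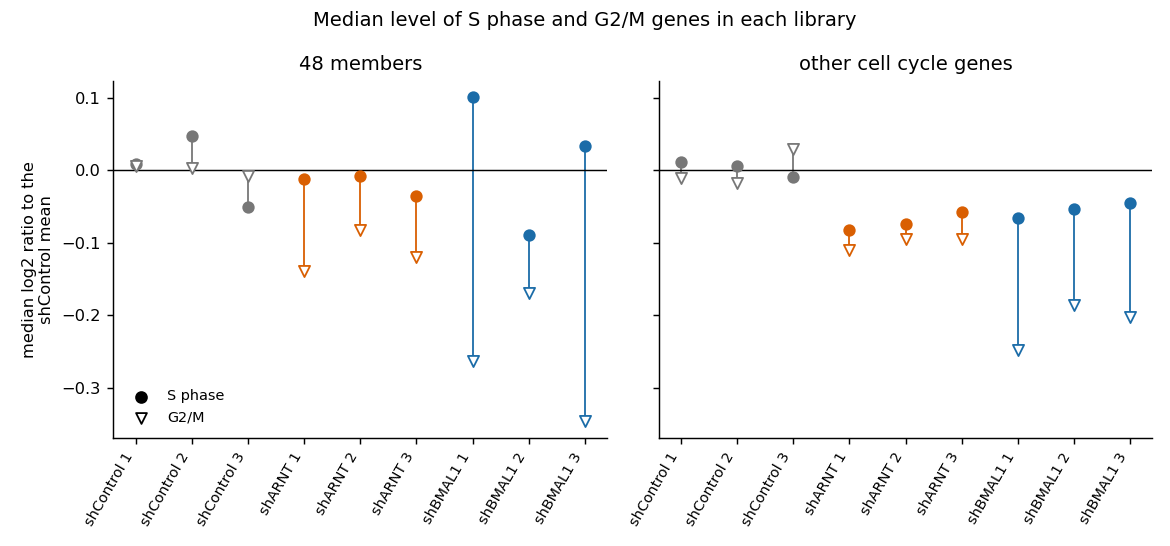
Median log2 ratio to the shControl mean (vertical axis) of S phase genes (filled circles) and G2/M genes (open triangles) in each of the 9 libraries, for the 48 genes (left) and for the other cell cycle genes of both phases (right). The lines between the symbols are long in shBMAL1 replicates 1 and 3 (0.3634 and 0.3806) and short in replicate 2 (0.0795) for the 48 genes, and 0.1321 to 0.1833 long in all 3 shBMAL1 libraries for the other genes.

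Further genes of both phases were drawn from textbook lists. These lists were also chosen with earlier results of these data known, so they are not an independent check. Of 68 other G2/M genes, 37 fell and 1 rose under shBMAL1 (median −0.20), and 22 fell and 3 rose under shARNT (median −0.11). These are 54.4% lower and 1.47% higher under shBMAL1 and 32.4% lower and 4.41% higher under shARNT, beside the shares of 31.3%, 19.7%, 24.04% and 20.4% given above for genes whose mean reached 300. Of 50 other S phase genes, 12 fell and 5 rose under shBMAL1 (median −0.04), and 15 fell and 3 rose under shARNT (median −0.07). The S phase shares were 24% lower and 10% higher under shBMAL1, both below those backgrounds, and 30% lower and 6% higher under shARNT. In the libraries, the S phase minus G2/M median of these other genes was 0.1321 to 0.1833 in shBMAL1, 0.0203 to 0.0375 in shARNT and −0.0377 to 0.0237 in shControl, so that here shBMAL1 replicate 2 lay with its group and shARNT lay close to the controls.

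CIT, the citron kinase of cytokinesis, was the lowest of the other G2/M genes in both knockdowns. Its counts were 3322, 3646 and 3332 in shControl, 2601, 2432 and 2451 in shARNT and 1909, 1955 and 1795 in shBMAL1, with 3 separate groups. CIT gave −0.46 (SE 0.06, adjusted p 8.89e-12) under shARNT and −0.87 (SE 0.07, adjusted p 1.82e-29) under shBMAL1. ESPL1, the separase that cuts cohesin at anaphase, was next under shBMAL1 at −0.77 (SE 0.07, adjusted p 3.65e-23), and CKS1B, a small CDK-binding protein, next under shARNT at −0.39 (SE 0.09, adjusted p 6.49e-05). CDC25B, a phosphatase that activates CDK1 in G2, rose under shARNT at 0.23 (SE 0.05, adjusted p 3.55e-05) and fell under shBMAL1 at −0.46 (SE 0.07, adjusted p 5.29e-11). PIMREG was also called higher under shARNT, at 0.31 (SE 0.10, adjusted p 0.00593), and KIF18A, a motor that limits chromosome oscillation, was the single other G2/M gene called higher under shBMAL1, at 0.26 (SE 0.08, adjusted p 0.00778).

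GMNN, geminin, the inhibitor of CDT1, had the lowest value of the other S phase genes under shARNT. Its counts were 650.0, 623 and 756 in shControl, 399.5, 419 and 453 in shARNT and 741, 879 and 859.8 in shBMAL1. All shARNT libraries lay below the controls, and shBMAL1 overlapped them. GMNN was −0.67 (SE 0.11, adjusted p 2.58e-08) under shARNT and 0.29 (SE 0.11, adjusted p 0.0314) under shBMAL1, and the shBMAL1 call was lost without shControl replicate 1 (0.137), shControl replicate 2 (0.174), shBMAL1 replicate 2 (0.158) or shBMAL1 replicate 3 (0.127). CCNE2, a cyclin of the G1 to S transition, and CDC25A, a phosphatase that activates CDK2, were the highest under shARNT, at 0.58 (SE 0.09, adjusted p 9.35e-09) and 0.20 (SE 0.08, adjusted p 0.0428), and the call of CDC25A was lost without shControl replicate 2 (0.181), shControl replicate 3 (0.105) or shARNT replicate 3 (0.209). Under shBMAL1 the origin recognition genes ORC1 and ORC6 were lowest, at −0.36 (SE 0.08, adjusted p 1.44e-05) and −0.34 (SE 0.09, adjusted p 0.00142). DUT, the enzyme that keeps uracil out of DNA by cleaving dUTP, rose there at 0.31 (SE 0.08, adjusted p 0.00137).

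Among 32 regulators of the cycle, 10 fell in each knockdown, and 9 rose under shARNT and 7 under shBMAL1. The 31.2% lower in each knockdown and 21.9% higher under shBMAL1 were near the background of 31.3% and 19.7% under shBMAL1, and under shARNT 31.2% lower and 28.1% higher stood beside 24.04% and 20.4%. E2F7, a repressor of the E2F family, had counts of 3382, 3443 and 3722 in shControl, 2304, 2376 and 2106 in shARNT and 1537, 1497 and 1401 in shBMAL1. The groups were separate and ordered shControl, shARNT, shBMAL1. E2F7 gave −0.63 (SE 0.07, adjusted p 1.28e-19) under shARNT and −1.25 (SE 0.08, adjusted p 1.43e-59) under shBMAL1, the lowest regulator in both. E2F8, the related repressor, rose in both, at 0.48 (SE 0.07, adjusted p 6.08e-10) and 0.34 (SE 0.08, adjusted p 2.41e-04).

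CDKN1A, the CDK inhibitor p21, rose in both knockdowns by a similar amount. Its counts were 2454, 2704 and 2609 in shControl, 3281, 3618 and 2996 in shARNT and 3295, 3219.9 and 3340.1 in shBMAL1, with every knockdown library above the controls. CDKN1A gave 0.35 (SE 0.07, adjusted p 1.56e-05) under shARNT and 0.34 (SE 0.07, adjusted p 8.76e-06) under shBMAL1. CDKN1B, the CDK inhibitor p27, rose under shBMAL1 at 0.58 (SE 0.11, adjusted p 3.53e-07) and was 0.11 (SE 0.10, adjusted p 0.492) under shARNT. CDK2, the kinase of S phase, fell under shBMAL1 at −0.51 (SE 0.08, adjusted p 7.62e-10) and under shARNT at −0.35 (SE 0.07, adjusted p 2.14e-05). SKP2, which targets p27 for degradation, fell under shARNT at −0.42 (SE 0.07, adjusted p 4.45e-09), and FBXW7, which targets cyclin E, rose there at 0.50 (SE 0.14, adjusted p 0.00221).

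The activators of the mitotic genes differed between the knockdowns. FOXM1 had counts of 8320.3, 8493 and 9124 in shControl, 9007, 8544 and 8868 in shARNT and 7804, 7040.5 and 7148 in shBMAL1, and its shBMAL1 libraries lay below all controls. It fell under shBMAL1 at −0.24 (SE 0.07, adjusted p 0.00216) and was 0.03 (SE 0.05, adjusted p 0.740) under shARNT. MYBL2 had counts of 9315, 9990.5 and 9312 in shControl, 8136, 7616 and 7025 in shARNT and 10773, 9764 and 10358 in shBMAL1. It fell under shARNT at −0.33 (SE 0.06, adjusted p 8.44e-07) and was 0.11 (SE 0.06, adjusted p 0.212) under shBMAL1, where it was called higher with the GC correction (0.0147). In the direct comparison FOXM1 was lower in shBMAL1 than in shARNT, at −0.27 (SE 0.06, adjusted p 2.63e-04), and MYBL2 was higher, at 0.44 (SE 0.07, adjusted p 1.10e-08). RBL2, the p130 pocket protein of the repressive MuvB complex, fell in both, at −0.39 (SE 0.05, adjusted p 2.29e-12) and −0.19 (SE 0.06, adjusted p 0.0160), and RBL1 (p107) was called in neither, at −0.07 (SE 0.07, adjusted p 0.476) and −0.07 (SE 0.07, adjusted p 0.546).

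**Figure D5:**
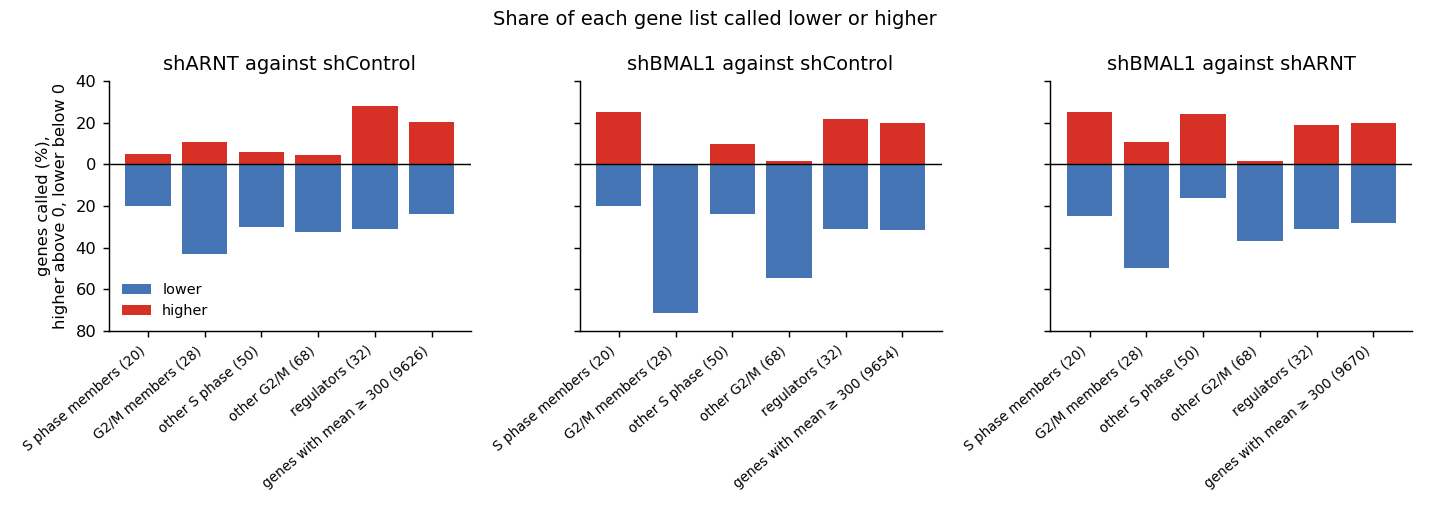
Share of each gene list called higher (above 0) or lower (below 0) in the 3 comparisons (vertical axis, percent), with the number of genes tested in parentheses; the last bar of each panel is all genes whose mean reached 300 counts. The G2/M genes under shBMAL1 have the longest lower bar (71.4%) and no higher bar.

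The promoter elements were set beside the fold changes as a description. Under shBMAL1, of the 13 S phase genes whose window held an E2F element 4 rose and 0 fell, with a median of 0.03, and of the 5 without 1 rose (MCM10) and 3 fell (RRM1, RRM2 and CDC45). Under shARNT, of the same 13 genes 1 rose and 4 fell, and none of the 5 without was called. Of the 19 G2/M genes with a CHR, 13 fell under shBMAL1 (median −0.27), and of the 4 without, 3 fell (median −0.44). The 2 G2/M genes with an E2F element, CDK1 and NUSAP1, were not called under shBMAL1. Of the 5 G2/M genes with an E-box 4 fell under shBMAL1, and of the 18 without 12 fell, while of the 3 S phase genes with an E-box 0 were called there and of the 15 without 3 fell and 5 rose. These groups are small and were formed after the fold changes were known, so no test was made.

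Transcript composition was described in the same way. The 28 G2/M transcripts had a median GC content of 42.1% and the 20 S phase transcripts 48.7%, beside 47.8% of genes whose mean reached 300 counts. Among the 28 G2/M genes GC content correlated with the log2 fold change under shBMAL1 at r = −0.577 (Pearson) and rho = −0.473 (Spearman), the strongest of 18 such pairs over the gene sets, comparisons and both GC content and transcript length. Over all 48 genes under shBMAL1 the values were −0.066 and 0.024, and over the 20 S phase genes −0.238 and −0.134. Under shARNT they were −0.176 and −0.262 for the G2/M genes and −0.479 and −0.439 for the S phase genes. Transcript length gave 0.161 and 0.284 for the G2/M genes and −0.163 and −0.168 for the S phase genes under shBMAL1. All of these are across genes of the same libraries and are descriptions. After correction of each library for GC content, 21 G2/M genes were lower and 0 higher under shBMAL1, with a median of −0.30, against 20 lower and a median of −0.27 without the correction.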

How the data were processed

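RNA from 9 libraries of 786-O cells was sequenced by BGI. The deposited values are estimated counts per gene that the authors exported as total reads, of which some are fractional and 0 is written as 0.009. The methods name GRCh37, SeqMan NGen 17 and ArrayStar 17, whereas the submitters' processing notes list hg38, STAR and DESeq2. This difference was not settled, and the annotation and the strand setting of the counting are not given in the sources used here.

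Of 38074 deposited rows, 53 repeated the name of another and were summed with it, leaving 38021 genes, and 28 rows had a date in place of a name. Counts were rounded to whole numbers. Groups were compared with the Wald test of DESeq2 1.42.0 (R 4.3.3) on the 6 libraries of each comparison, with independent filtering and Benjamini-Hochberg adjustment over all genes tested, and called at an adjusted p under 0.1, two-sided. Counts in the text are divided by DESeq2 size factors. Library totals were 33793045 to 35444735 reads, and 3 libraries per group limit the precision. The scripts were tested on simulated data. edgeR 4.0.16, TMM scaling, other filters and thresholds, all 9 libraries in one fit, a GC correction, a replicate block and leaving out each library were tried as alternatives. The replicate numbers did not pair the libraries: deviations of same-numbered libraries from their group means correlated at −0.1536 to 0.1053.

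The genes, lists, roles and promoter elements were chosen with earlier results of these data known. Full values were given for MKI67, TOP2A, CDK1, CCNB1, PCNA, MCM2 and E2F1 and for the 2 lowest and 2 highest called genes of each class in each comparison, while of the other lists the 2 lowest and 2 highest in each knockdown were named, with FOXM1, MYBL2, CDKN1A, RBL1 and RBL2. Of the other lists, 2 genes that meet this rule are not reported here. Library values of PLK1, AURKA, KIF11, NUF2, CIT, GMNN, E2F7, CDKN1A, FOXM1 and MYBL2 were added after the values were seen.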

Additional observations from a re-analysis of the deposited data

How the results depend on the processing

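The medians of both classes and their differences kept their direction or stayed within the spread between libraries under all alternatives. Leaving out each library in turn gave a difference between the S phase and G2/M medians of 0.065 to 0.103 under shARNT, 0.222 to 0.327 under shBMAL1 and 0.191 to 0.283 in the direct comparison. The counts of the 48 genes called higher were 2 to 3 under shARNT, 4 to 6 under shBMAL1 and 4 to 7 in the direct comparison, and those called lower were 12 to 14, 19 to 23 and 17 to 19. With a minimum change of 1.5-fold, 1200, 2606 and 2064 genes were called over the whole table in the 3 comparisons, 0, 2 and 0 of the 48 genes lower and 0, 0 and 1 higher, since few changes were that large. The replicate numbers did not pair the libraries. With a replicate block in the model, DESeq2 called 14 of the 48 genes lower and 3 higher under shARNT, 21 and 5 under shBMAL1, and 19 and 7 in the direct comparison. The calls that the block ended were MCM2 (adjusted p 0.148), CCNB1 (0.117) and KIF11 (0.187) under shARNT, CDC25C (0.106), BUB1B (0.133) and CDC45 (0.107) under shBMAL1 and CDT1 (0.146) in the direct comparison. The block together with the GC correction was not run, since the numbers do not pair the libraries.

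The sign changed in 34 fold changes of single genes (73 values), all of them uncalled in both fits, with an adjusted p of at least 0.601 and a size of at most 0.092 on the log2 scale, and the cause was not tested. Under shARNT these were ANLN (−0.000 with edgeR, −0.006 with TMM, −0.029 with the GC correction), CDC45 (−0.002 with TMM) and, with the GC correction, MCM4 (0.013), MCM5 (0.002) and MCM6 (−0.002). With the GC correction they were also CDK1 (−0.019) and MCM7 (0.009) under shBMAL1 and CKS1B (−0.007) in the direct comparison. Over the libraries left out, the log2 fold changes were, for shARNT against shControl, ANLN −0.010 to 0.022, AURKA −0.076 to 0.002, CCNA2 −0.033 to 0.013, CDC45 −0.037 to 0.055, ECT2 −0.035 to 0.022, MCM4 −0.034 to 0.020, MCM5 −0.087 to 0.004, MCM6 −0.036 to 0.070, MCM7 −0.047 to 0.050, NDC80 −0.063 to 0.028, NUF2 −0.083 to 0.059, RRM1 −0.068 to 0.043, RRM2 −0.035 to 0.004, TPX2 −0.056 to 0.003 and TTK −0.076 to 0.030. They were, for shBMAL1 against shControl, CCNE2 −0.101 to 0.061, CDC6 −0.061 to 0.109, CDK1 −0.022 to 0.063, E2F1 −0.219 to 0.054, FEN1 −0.026 to 0.111, MCM2 −0.004 to 0.103, MCM5 −0.019 to 0.093, MCM7 −0.058 to 0.021, SKP2 −0.062 to 0.002 and TYMS −0.089 to 0.024. They were, for shBMAL1 against shARNT, BUB1B −0.005 to 0.017, CDKN1A −0.075 to 0.062, CKS1B −0.078 to 0.108, FEN1 −0.115 to 0.018, KIF23 −0.069 to 0.022, MCM7 −0.077 to 0.017, RBL1 −0.020 to 0.055, TTK −0.120 to 0.026 and UHRF1 −0.087 to 0.092. All 48 genes passed the filter on low counts, and 3 libraries per group limit the precision of the smaller fold changes.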
